A study of Mus musculus with 9 samples.

Results

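The genes described here encode collagens and laminins, with nidogens, fibronectin, SPARC and perlecan, the kinds of protein that build the wall of the seminiferous tubule. They are called wall genes for short. The set also holds chains known mainly from other tissues, such as Col2a1 of cartilage and Col25a1 of neurons, and their place in the wall was not measured. Members were the probe sets whose platform annotation gave 1 gene symbol and whose symbol was a collagen alpha chain (Col), a laminin chain (Lama, Lamb or Lamc), Nid1, Nid2, Fn1, Sparc or Hspg2. That rule found 112 of 45037 probe sets, which stood for 57 genes. A filter on low signal kept 58 of the 112 probe sets (51.8%) and 42 of the 57 genes, against 60% of all probe sets, and 13616 named genes in all had a kept probe set. Each gene is given by its brightest kept probe set, and the 15 genes with none are described by level alone.

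The basement membrane of the tubule is a sheet in which laminin trimers, each of an alpha, a beta and a gamma chain, and a network of type IV collagen are joined by nidogen and perlecan. Sertoli cells inside the tubule and peritubular myoid cells outside it both contribute to the sheet, and fibrillar collagens lie in the layers beyond it. Spermatogonia rest on this sheet and hold it through integrins, while the later germ cells have lost contact with it. In mouse embryonal carcinoma cells retinoic acid induces Lamb1, Col4a1 and Col4a2, and a retinoic acid response element has been described upstream of Lamb1. Retinoic acid is made from vitamin A.

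The study measured RNA from preparations labelled spermatogonia. They came from adult Balb/C mice on a vitamin A-deficient (VAD) diet for 25 weeks, on the same diet for 18 weeks, or on a normal diet (control). There were 3 Affymetrix arrays per group and 9 in all. No transgene or mutation is named in the labels, and the age of the control mice and the time they spent on their diet are not given. Per the labels, testes of 2 mice were pooled in a preparation, digested, plated overnight and separated by sedimentation. Interstitial cells were removed with the first supernatant, and the germ cells in suspension after plating were the ones sedimented. Whether each array came from a separate preparation is not stated, and the p-values below therefore measure only the spread between these arrays, which may be technical.

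The arrays differed in brightness both within and between the groups. VAD 25-week replicate 3 and control replicate 3, called the dim pair here, were the darkest, with a trimmed mean of 23.2 and 22.9, while the other 7 arrays had 55.2 to 185. Among these, VAD 25-week replicates 1 and 2 had 185 and 143, control replicates 1 and 2 had 58.1 and 59.6, and the VAD 18-week arrays had 55.2 to 85.1. Outside the dim pair, brightness and the 25-week group therefore cannot be told apart. VAD 25-week replicates 1 and 2 carried 29.5 and 36.9 times the median signal of the bacterial poly-A control transcripts. Values below are log2 signals after quantile normalization, and 1 unit is a doubling. Differences come from limma with group and a block for the dim pair as terms and are called at a Benjamini-Hochberg adjusted p under 0.05 over all 27022 kept probe sets. Without that block limma called 0 probe sets in any comparison, and for the 42 genes the smallest adjusted p in limma was then 0.171 at 25 weeks (7 genes at an unadjusted p under 0.05).

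Markers were read against the cell label. Of 17 markers of undifferentiated spermatogonia on the array 8 were kept, led by Id4 at a mean log2 signal of 8.80, Dmrt1 at 5.16 and Gfra1 at 5.05, and 9 were below the filter, among them Ret, Sall4 and Lin28a. All 10 markers of differentiating spermatogonia were kept, led by Dmrtb1 at 9.78 and Tex101 at 8.91, a gene that later germ cells express too. Genes of later germ cells were brighter, with 13.9 for Ldhc of pachytene spermatocytes and 11.9 for Prm1 of spermatids. In control, the summed signal was 30900 to 37100 for kept pachytene markers and 10500 to 24200 for spermatid markers. It was 389 to 510 for undifferentiated and 972 to 2080 for differentiating markers, and both VAD groups showed the same order. The RNA was thus not that of spermatogonia alone, whatever the cell label. Of 12 peritubular myoid markers 7 were kept by the filter and 5 were not (Tagln, Cnn1, Myocd, Smtn and Lmod1). The brightest myoid probe sets were Mylk at 7.70, Acta2 at 7.30 and Actg2 at 7.30. In bulk RNA of this kind, fewer cells of a type and less RNA per cell cannot be told apart.

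The signals of the wall genes were low. Of the 42 kept genes, 22 had a mean log2 signal under 5 in all 3 groups and only 3, Col16a1, Col22a1 and Hspg2, reached 7 in any group. The filter itself lay at 3.39, and the pseudocount sets a floor of 1.71. The standard errors of the 42 genes in the 25-week comparison ranged from 0.133 to 0.616 with a median of 0.317, against a median of 0.256 over all named genes.

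Promoters are shown for 3 basement membrane genes that were called at 25 weeks and code for parts that bind each other, namely Lamb1 and Nid1, which were higher, and Hspg2, which was lower. Each line holds the 250 bases before the start used for the gene in the RefSeq promoter set, build GRCm38.p6. They run 5′ to 3′ on the strand of the gene, which is the plus strand in all 3. The annotated Lamb1 and Hspg2 genes themselves overlap their windows. The Lamb1 window also overlaps Gm32899, and the Nid1 window overlaps Gm7426. The windows are chr12:31265043-31265292 for Lamb1, chr13:13437352-13437601 for Nid1 and chr4:137468553-137468802 for Hspg2. Capitals mark the GC box, written GGGCGG on the gene's strand or CCGCCC on the other.
Lamb1: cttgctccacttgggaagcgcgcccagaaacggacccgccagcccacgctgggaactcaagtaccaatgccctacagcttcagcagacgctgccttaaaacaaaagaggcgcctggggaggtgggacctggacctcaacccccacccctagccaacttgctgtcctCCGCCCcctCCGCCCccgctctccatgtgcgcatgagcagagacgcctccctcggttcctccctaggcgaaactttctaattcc
Nid1: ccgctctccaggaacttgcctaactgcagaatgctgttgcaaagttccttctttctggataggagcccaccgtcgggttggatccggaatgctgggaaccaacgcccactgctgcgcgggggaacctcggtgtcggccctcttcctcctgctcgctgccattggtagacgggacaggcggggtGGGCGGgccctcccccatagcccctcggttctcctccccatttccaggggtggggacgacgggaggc
Hspg2: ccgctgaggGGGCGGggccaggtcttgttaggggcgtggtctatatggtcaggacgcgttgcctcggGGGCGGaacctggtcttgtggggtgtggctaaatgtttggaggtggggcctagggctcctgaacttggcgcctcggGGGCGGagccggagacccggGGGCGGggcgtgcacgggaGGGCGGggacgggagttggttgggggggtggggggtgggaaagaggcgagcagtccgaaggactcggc
The Lamb1 window held 2 GC boxes, the Nid1 window 1 and the Hspg2 window 5. Among all 32851 promoter windows of this length, 32.7% held at least 1 GC box, and among 45 windows of the 41 wall genes that were matched, 25 did. The motif AGGTCA, which retinoid receptors bind in pairs, was searched on both strands and was found in none of the 3 windows shown, in 8 of the 45 windows of wall genes and in 14% of all windows. A pair of copies on 1 strand with 5 bases between them was found in 0 of the 45 and in 3 of the 32851 windows. These are matches of letters in a short window and show no binding. An element further than 250 bases upstream would not be found. The search therefore does not show whether Lamb1 has the response element described above.

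Set against control, VAD 25 weeks shows how the wall transcripts stood after the longer time on the deficient diet. Of the 42 wall genes, 4 were higher, Lamb1, Nid1, Col18a1 and Col25a1, and 4 were lower, Lama5, Hspg2, Col2a1 and Col5a3, by limma with the block. That is 19% of the genes, against 17% called among all 13616 named genes (9.05% higher and 7.95% lower), so the share was near that of the background. The arrays of both groups did not overlap for 3 wall genes higher (Nid1, Col18a1 and Col25a1), against 9.58% of all named genes, and for 6 lower (Lamb3, Hspg2, Col2a1, Col5a3, Col5a1 and Col22a1), against 8.09%. The median difference was 0.05 for the wall genes and -0.03 for all named genes. Above 0 lay 23 of the 42 (54.8%), against 47.9% of all named genes. The 42 genes of this set did not move together in either direction, and parts of basement membranes were called in opposite directions.

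**Figure D1:**
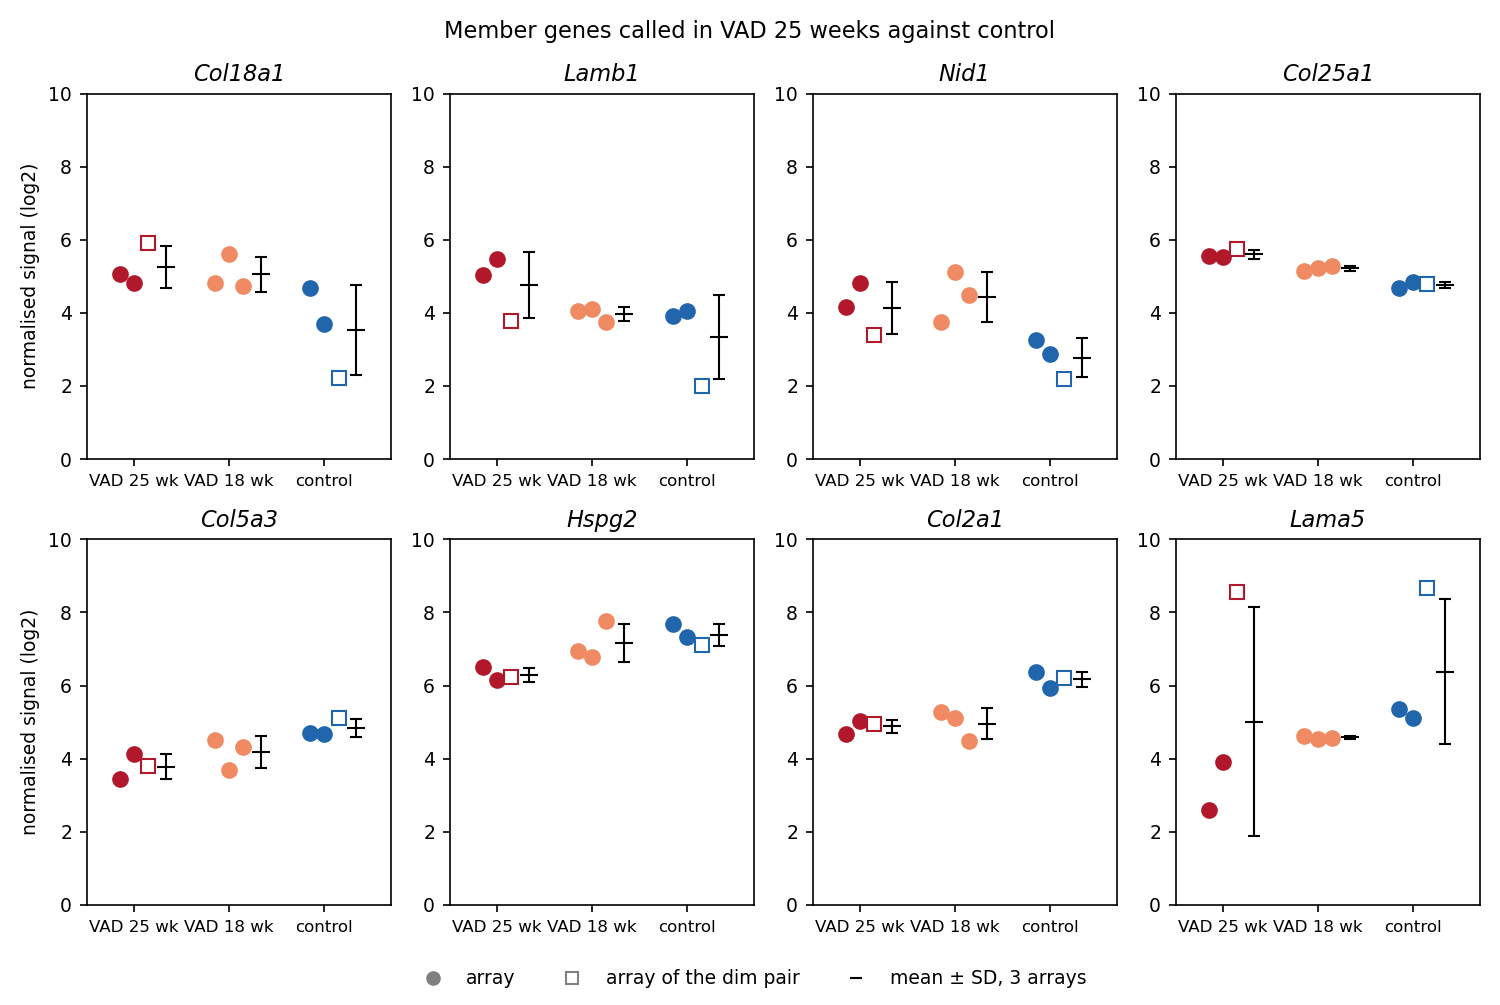
Normalised log2 signal of the 8 called genes on each array of VAD 25 weeks, VAD 18 weeks and control, with open squares for the dim pair and black bars for the mean ± SD of 3 arrays. No VAD array of Col2a1 reaches the control arrays, while the dim pair of Lama5 stands at 8.55 and 8.66, far above the other arrays.

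Lamb1, the beta chain of the commonest basement membrane laminins, showed log2 signals of 5.04, 5.49 and 3.76 on the VAD 25-week arrays, 4.05, 4.11 and 3.75 on the VAD 18-week arrays and 3.93, 4.06 and 2.00 on the control arrays. The lowest value of the 25-week and of the control group was the array of the dim pair, and the groups overlap unless arrays of like brightness are set side by side. Within the dim pair the 25-week array was higher by 1.76, and the mean of the other 25-week arrays was higher by 1.27. Limma gave a difference of 1.44 ± 0.30 (SE, n = 3 per group) with an adjusted p = 0.0103. The alternatives counted here and below overlap and are not separate checks. Leaving out either array of the dim pair, or both, gives the same 25-week difference, and leaving out a VAD 18-week array does not change it. Lamb1 was called in 18 of 21 alternatives, with an adjusted p in limma from 6.51e-05 to 0.4. It was lost without the block (0.4), without VAD 25-week replicate 2 (adjusted p in limma 0.0607) and without both poly-A-bright arrays. Its probe set is of the kind prone to cross-hybridisation, and the other 3 Lamb1 probe sets did not pass the filter.

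Lama5, the alpha chain of the major laminins of adult basement membranes, showed 2.60, 3.90 and 8.55 at VAD 25 weeks, 4.62, 4.55 and 4.58 at VAD 18 weeks and 5.37, 5.12 and 8.66 in control. The dim pair stood above all other arrays in signal. Limma gave -1.37 ± 0.40 (SE) and an adjusted p = 0.04, but the difference was -0.11 within the dim pair and -2.0 in the other arrays. It was called in 7 of 22 alternatives, and a second kept probe set of Lama5 had a difference of 0.16 (limma adjusted p = 0.873). The size of the Lama5 difference thus rests on 1 probe set and on the brighter arrays.

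Of the 8 kept laminin chains, 1 was higher and 1 lower, and 6 lay above 0 with a median of 0.26. Lamb2, the beta chain of the laminins of mature and synaptic basement membranes, was at 0.84 ± 0.45 (SE) and Lama3, an alpha chain of epithelial anchoring laminins, at 0.63 ± 0.47, and neither passed. Lama2, the alpha chain of muscle basement membrane, had signals of 6.53, 6.99 and 6.36 at VAD 25 weeks, 6.60, 6.51 and 6.69 at VAD 18 weeks and 6.93, 6.87 and 5.98 in control. Its groups overlap, and its difference of 0.04 ± 0.19 is the smallest of the laminins at 25 weeks. Lamb3, the beta partner of Lama3, lay at -0.69 ± 0.29 (limma adjusted p = 0.136) although all 3 of its 25-week signals, 4.63, 4.13 and 4.86, were under all 3 control signals, 5.17, 5.12 and 5.41. Lamc3, a gamma chain, was at 0.38 ± 0.38 and Lama4, an alpha chain of vessel walls, at 0.13 ± 0.52. Lama1, an alpha chain of embryonic laminin, and Lamc1, the gamma chain shared by most laminins, were below the filter, with mean signals of 2.40 ± 0.43, 2.72 ± 0.47 and 2.38 ± 0.25 for Lama1 at VAD 25 weeks, VAD 18 weeks and control (SD, n = 3), and 3.53 ± 0.80, 3.19 ± 0.85 and 3.27 ± 0.38 for Lamc1.

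Nid1, the nidogen that ties laminin to type IV collagen, showed 4.16, 4.82 and 3.40 at VAD 25 weeks, 3.74, 5.11 and 4.47 at VAD 18 weeks and 3.25, 2.88 and 2.20 in control. All 6 VAD arrays lay above all 3 control arrays. The control signals all lay under the filter level of 3.39, so that Nid1 passed the filter through the VAD arrays, and with no filter its call was lost (limma adjusted p = 0.074). The other Nid1 probe sets were below the filter, at 2.20 and 2.47 on average at VAD 25 weeks and 2.21 and 2.41 in control. Limma gave 1.35 ± 0.40 (SE) at 25 weeks with an adjusted p = 0.0418, and 7 of 21 alternatives called it, with an adjusted p from 0.000474 to 0.329. It was lost without any 1 of the 3 control or the 3 VAD 25-week arrays (limma adjusted p from 0.0597 to 0.17) and without VAD 18-week replicate 3 (0.0621), while the difference itself stayed between 1.14 and 1.52 when any 1 of these arrays was left out. Nid2, the second nidogen, lay the other way, at -0.55 ± 0.39 (limma adjusted p = 0.365), with signals of 3.78, 3.78 and 2.25 at VAD 25 weeks and 4.35, 3.83 and 3.29 in control.

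Hspg2 encodes perlecan, the heparan sulphate proteoglycan of basement membranes. Its signals were 6.51, 6.14 and 6.24 at VAD 25 weeks, 6.95, 6.78 and 7.76 at VAD 18 weeks and 7.69, 7.34 and 7.11 in control. All 3 of the 25-week arrays lay below the 6 others, and the difference was -0.87 within the dim pair and -1.19 in the other arrays. Limma gave -1.08 ± 0.25 (SE) with an adjusted p = 0.0154. A second kept probe set of Hspg2 was lower as well, at -1.47 ± 0.41 (limma adjusted p = 0.0349), which did not pass without the dim pair (0.0974) or with the replicate block (0.0509). Hspg2 was called in 16 of 22 alternatives, and was lost without control replicate 1 (limma adjusted p = 0.0706) or VAD 25-week replicate 2 (0.0711) among those that left out 1 array; its adjusted p over all 22 ranged from 0.00283 to 0.92.

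Sparc, a calcium-binding matrix protein that Sertoli and Leydig cells secrete, was not called by its brightest probe set. That probe set had signals of 5.60, 5.70 and 4.09 at VAD 25 weeks, 5.84, 7.10 and 5.0 at VAD 18 weeks and 5.51, 2.87 and 3.14 in control. Control replicate 1 overlaps both VAD groups, and limma gave 1.29 ± 0.62 (SE, adjusted p = 0.184) at 25 weeks. A second Sparc probe set had 5.01, 5.48 and 6.0 at VAD 25 weeks, 4.80, 6.09 and 4.96 at VAD 18 weeks and 4.54, 3.86 and 2.53 in control, so that all VAD arrays stood above control. For that probe set limma gave 1.85 ± 0.49 (adjusted p = 0.0267), but the difference was 3.47 within the dim pair and 1.05 in the other arrays. Its call was lost without the dim pair (limma adjusted p = 0.111) and with the replicate block (0.061), and the third kept Sparc probe set was at 0.26 (adjusted p = 0.745). Fn1, the adhesive glycoprotein fibronectin, was at -0.56 ± 0.26 (limma adjusted p = 0.167), with 5.77, 5.62 and 4.79 at VAD 25 weeks, 5.10, 5.40 and 5.71 at VAD 18 weeks and 5.74, 6.26 and 5.87 in control.

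**Figure D2:**
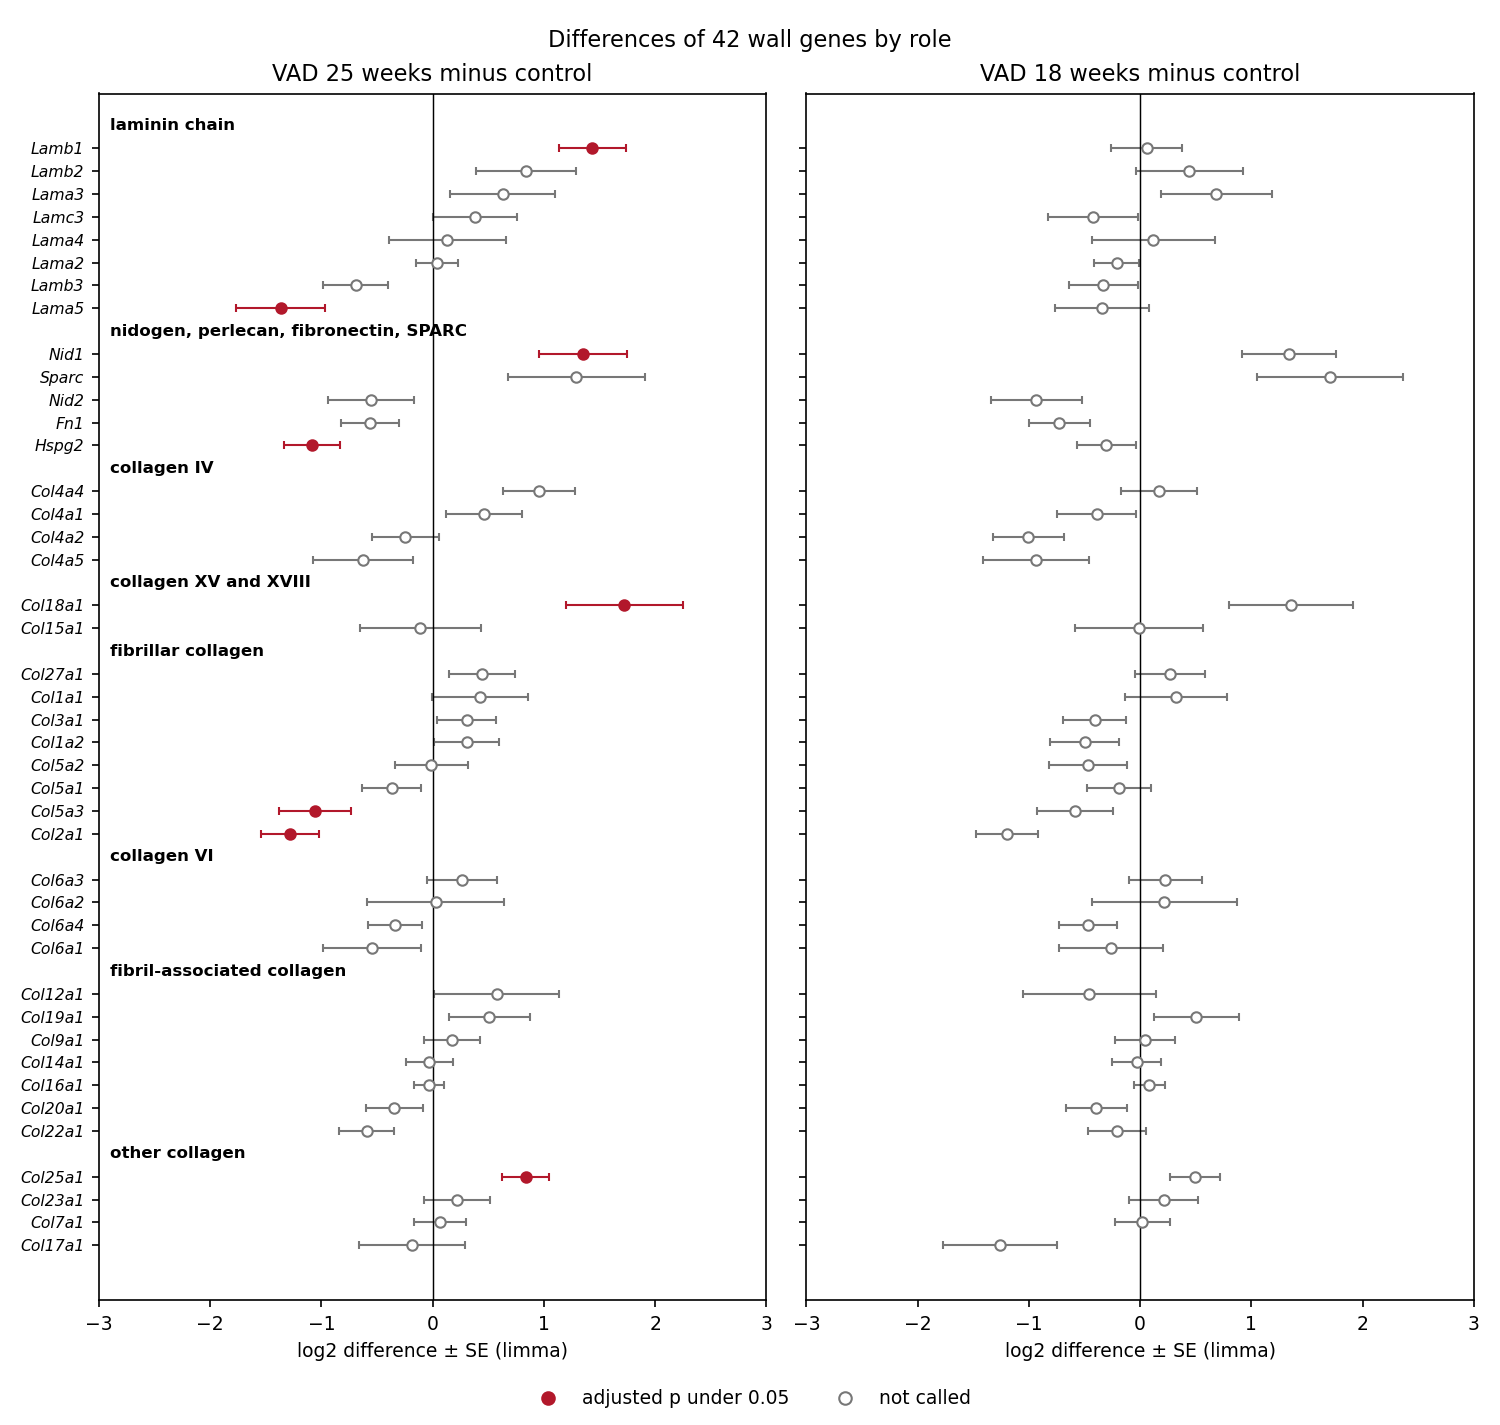
Log2 differences with their standard errors (limma) for the 42 kept genes grouped by role, VAD 25 weeks minus control on the left and VAD 18 weeks minus control on the right. Filled red points are called, 8 of them at 25 weeks and 0 at 18 weeks; both comparisons use the same control arrays.

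None of the 4 kept chains of type IV collagen, the network collagen of basement membranes, was called, and 2 of the 4 lay above 0. Col4a1 and Col4a2, the chains of the ubiquitous network, differ in sign at 25 weeks, 0.46 ± 0.34 (SE) for Col4a1 and -0.24 ± 0.30 for Col4a2. Col4a1 showed 4.90, 5.43 and 5.64 at VAD 25 weeks, 4.31, 4.72 and 4.71 at VAD 18 weeks and 5.38, 5.10 and 4.10 in control, and the 25-week and control ranges overlap. Its difference was 1.54 in the dim pair and -0.08 in the other arrays. A second kept probe set of Col4a1 gave 0.97 ± 0.43 (limma adjusted p = 0.156), with 2.11 in the dim pair and 0.39 in the other arrays. Col4a2 showed 4.61, 4.87 and 2.74 at VAD 25 weeks, 3.90, 4.18 and 4.02 at VAD 18 weeks and 5.45, 4.73 and 2.78 in control, with the dim pair lowest and nearly equal. Col4a4, a chain known from the glomerular basement membrane, had the largest difference of the family, 0.95 ± 0.32 (limma adjusted p = 0.0696), and it was called in 6 of 22 alternatives. Col4a5 lay at -0.63 ± 0.45, and Col4a3 and Col4a6 were below the filter.

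Col18a1 encodes the basement membrane collagen from which endostatin is cut. Its signals were 5.05, 4.81 and 5.91 at VAD 25 weeks, 4.83, 5.61 and 4.73 at VAD 18 weeks and 4.67, 3.70 and 2.22 in control. All VAD arrays lay above all control arrays, but the size depends on the dim pair, where the difference was 3.68, against 0.74 in the other arrays. Limma gave 1.72 ± 0.53 (SE) with an adjusted p = 0.0478, and without the dim pair the difference was 0.74 and the adjusted p in limma 0.213. It was called in 6 of 22 alternatives (adjusted p from 1.54e-05 to 0.339). The second kept probe set of Col18a1, of the kind prone to cross-hybridisation, ran the other way at -0.86 (limma adjusted p = 0.135).

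Fibrillar collagens, which form the tensile fibres outside the basement membrane, gave 2 lower genes and 0 higher ones among 8 kept. Col2a1, the fibrillar collagen of cartilage, showed 4.69, 5.04 and 4.94 at VAD 25 weeks, 5.27, 5.11 and 4.48 at VAD 18 weeks and 6.36, 5.94 and 6.22 in control. All 6 VAD signals lay below all 3 control signals, and the 25-week difference was -1.28 within the dim pair and -1.29 in the other arrays. Limma gave -1.28 ± 0.26 (SE) with an adjusted p = 0.00896, the smallest of the 42 genes. The call held in 19 of 22 overlapping alternatives, with an adjusted p in limma from 0.00232 to 0.672. These include each of the 9 that left out 1 array, though leaving out a VAD 18-week array does not change the 25-week difference.

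Col5a3, a minor chain of type V collagen, showed 3.44, 4.12 and 3.79 at VAD 25 weeks, 4.51, 3.69 and 4.33 at VAD 18 weeks and 4.71, 4.68 and 5.12 in control. Its groups at 25 weeks and control do not overlap, and limma gave -1.05 ± 0.32 (SE, adjusted p = 0.0492), which was the call nearest to the threshold. It held in 4 of 21 alternatives (adjusted p from 0.0401 to 0.911). Just outside the threshold stood Col4a4 at an adjusted p = 0.0696 in limma.

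The main chains of type I and type III collagen were not called. Col1a2 showed 4.96, 5.26 and 4.30 at VAD 25 weeks, 4.39, 3.98 and 4.19 at VAD 18 weeks and 4.27, 4.87 and 4.47 in control. The differences at 25 weeks were 0.31 ± 0.29 for Col1a2, 0.43 ± 0.43 for Col1a1 and 0.31 ± 0.27 for Col3a1 (SE). Each of these lay within 2 standard errors of 0, with 25-week and control arrays overlapping.

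Among the other collagens, Col25a1, a transmembrane collagen known mainly from neurons, was higher at 25 weeks. Its signals were 5.55, 5.51 and 5.74 at VAD 25 weeks, 5.14, 5.22 and 5.29 at VAD 18 weeks and 4.67, 4.83 and 4.79 in control, and no 2 groups overlap. Limma gave 0.84 ± 0.21 (SE, adjusted p = 0.0219) at 25 weeks, and 15 of 22 alternatives called it (adjusted p from 0.000831 to 0.991). It was lost without control replicate 1 (limma adjusted p = 0.0683), VAD 25-week replicate 1 (0.0826) or VAD 25-week replicate 2 (0.0784). A second kept probe set of Col25a1 was at -0.82 (limma adjusted p = 0.327), and the mean of both probe sets gave 0.01. None of the 7 fibril-associated and none of the 4 kept type VI chains was called. Col22a1, a collagen of tissue junctions, lay at -0.59 ± 0.25 (adjusted p = 0.128), Col12a1 at 0.58 ± 0.56 and Col19a1 at 0.51 ± 0.36.

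**Figure D3:**
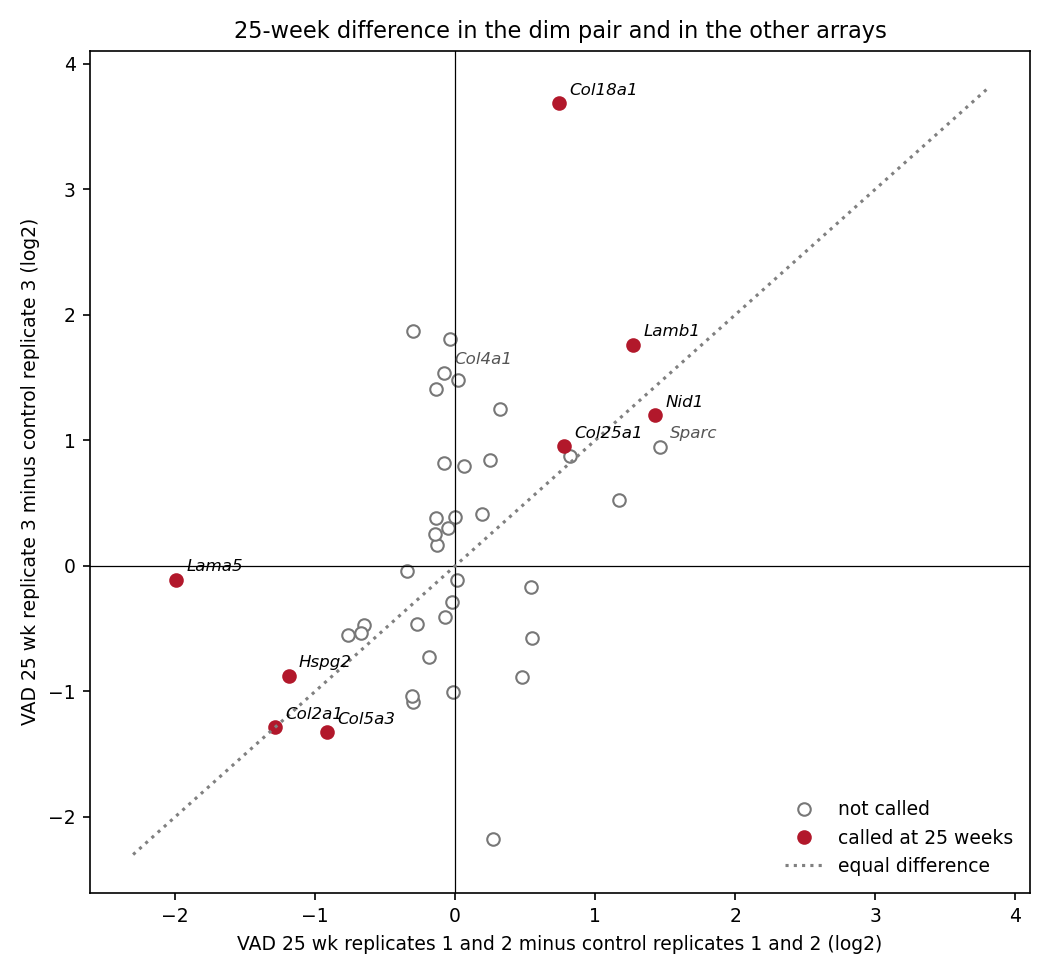
Difference between VAD 25 weeks and control for the 42 kept genes, measured within the dim pair (vertical, log2) and between the other 25-week and control arrays (horizontal, log2), with the 8 called genes in red. Col2a1, Hspg2, Lamb1, Nid1, Col25a1 and Col5a3 lie near the dotted line of equal difference, while Col18a1 and Lama5 lie far from it.

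The 25-week difference could be read in separate arrays, the dim pair and the other 4 arrays of these groups. The sign was the same in both for 28 of the 42 wall genes (66.7%), against 62.7% of all named genes. All 8 called genes are among the 28, which is no independent evidence, since the call used the same arrays. The numbers of higher and lower genes were 2 and 1 without control replicate 1, 2 and 2 without control replicate 2, and 3 and 3 without control replicate 3. They were 1 and 2 without VAD 25-week replicate 1, 0 and 1 without replicate 2, and 3 and 3 without replicate 3. Leaving out a VAD 18-week array, which changes the spread estimate but not the 25-week difference, gave 3 and 3 for replicates 1 and 2, and 2 and 2 for replicate 3. With the dim pair left out they were 3 and 3, the same difference being fitted as without either of its arrays. Leaving out the poly-A-bright VAD 25-week arrays, an alternative chosen after seeing the data, leaves 1 VAD 25-week array, that of the dim pair. With the block, each 25-week difference there is that within the dim pair, 1 array against 1, and no call can be read from it. It was 3.68 for Col18a1, 1.54 for Col4a1, 1.87 for Col1a1, -0.87 for Hspg2 and -0.11 for Lama5. When the replicate number was added as a block beside that of the dim pair, the limma calls that held were Lamb1 (adjusted p = 0.0311), Hspg2 (0.0106) and Col2a1 (0.0202), while Nid1 (0.0735), Col18a1 (0.0999), Col25a1 (0.065), Lama5 (0.0862) and Col5a3 (0.108) did not pass.

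The split between higher and lower depends on the scaling. Quantile normalization gave 4 higher and 4 lower genes, median centring 5 and 3, and the deposited scaling 17 and 0. Of all named genes 11% were higher and 3.79% lower with median centring, and 39% were higher and 0.0367% lower on the deposited scale. On the deposited scale the median of all named genes was itself shifted by 0.91 at 25 weeks, against -0.03 after quantile normalization. The lowest adjusted p given above for Lamb1, Nid1, Col18a1 and Col25a1 came from limma on that shifted scale. Relative to that shift, Hspg2 (-0.96), Col2a1 (-1.13), Col5a3 (-0.98) and Lama5 (-1.53) stayed below the median of all named genes. Lamb1 (1.41), Nid1 (1.21), Col18a1 (1.46) and Col25a1 (0.89) stayed above it. These relative values are the same with median centring, since a constant per array cancels, so they are no further check. With median centring Col5a3 was not called (limma adjusted p = 0.0859).

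The comparison of VAD 18 weeks with control asks the same after the shorter time on the diet. None of the 42 wall genes was called by limma with the block (9 at an unadjusted p under 0.05), against 1.51% of all named genes (1.36% higher and 0.147% lower). The median difference was -0.20 for the wall genes and -0.02 for all named genes. Above 0 lay 18 of the 42 (42.9%), against 48.4% of all named genes. The arrays of the groups did not overlap for 4 genes higher (Nid1, Col18a1, Col25a1 and Col19a1) and 5 lower (Col2a1, Col5a3, Lama5, Col4a5 and Fn1), where the background shares are 11.8% and 8.17%.

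Col2a1 came nearest to a call at 18 weeks, with -1.20 ± 0.28 (SE, limma adjusted p = 0.0574), and it was called in 6 of 21 alternatives (adjusted p from 0.0318 to 0.793). The largest positive differences were 1.71 ± 0.65 for Sparc, 1.36 ± 0.56 for Col18a1 and 1.34 ± 0.42 for Nid1 (limma adjusted p = 0.223, 0.253 and 0.145). The lowest differences beside that of Col2a1 were Col17a1, a transmembrane collagen of epithelial anchorage, at -1.26 ± 0.51, Col4a2 at -1.0 ± 0.32, Col4a5 at -0.94 ± 0.48 and Nid2 at -0.93 ± 0.41, none of which passed. Lamb1 stood at 0.06 ± 0.32 and Hspg2 at -0.30 ± 0.27. The block's offset is fitted on the dim pair, so the 18-week differences with the block are not plain differences of group means.

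**Figure D4:**
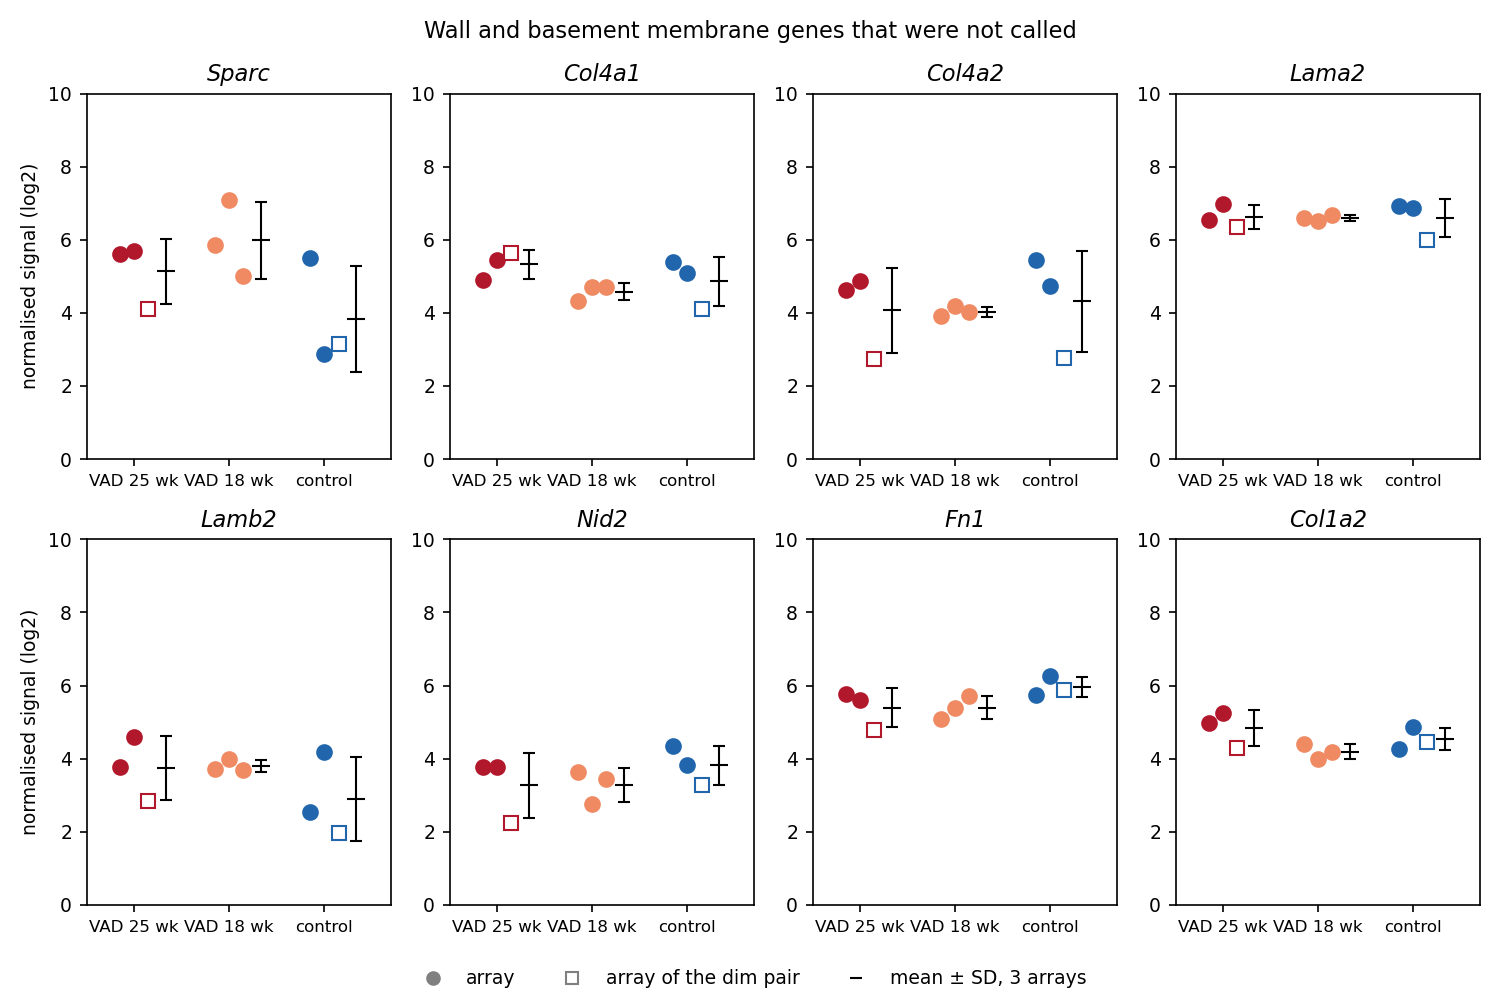
Normalised log2 signal on each array for Sparc, Col4a1, Col4a2, Lama2, Lamb2, Nid2, Fn1 and Col1a2, which were not called, with open squares for the dim pair and bars for the mean ± SD of 3 arrays. The dim pair lies lowest in its group for Col4a2 (2.74 and 2.78) and Lamb2, and Sparc on control replicate 1, at 5.51, lies among the VAD arrays.

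VAD 25 weeks was also set against VAD 18 weeks, the difference between the times on the diet. Limma with the block called 0 of the 42 wall genes (8 at an unadjusted p under 0.05) and 0% of all named genes, so that neither the genes called at 25 weeks nor any others were shown to differ between the times. Lamb1 had the largest difference, 1.37 ± 0.32 (SE, adjusted p = 0.172), and was called in 3 of 20 alternatives, among them the one without the dim pair (adjusted p over all 20 from 0.00934 to 0.917). Of the 42 genes 29 (69%) lay above 0, against 49.4% of all named genes, with medians of 0.08 and -0.01. The 29 include all 4 kept type IV chains at 0.31 to 0.85. Col17a1 (1.07 ± 0.51), Col12a1 (1.04 ± 0.60) and Col4a1 (0.85 ± 0.36) followed Lamb1, and Lama5 (-1.02 ± 0.42) and Hspg2 (-0.78 ± 0.27) lay lowest. Arrays did not overlap for 4 genes higher (Col25a1, Col3a1, Col4a1 and Lamc3) and for Hspg2 lower, against 7.29% and 10.8% of all named genes. The 4 and the 1 genes of 42 are thus close to those shares or below them.

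Genes that receive, mature or cut this matrix were counted by list at 25 weeks, and the counts are read against 9.05% higher and 7.95% lower among all named genes. Of 19 kept matrix receptors 1 was higher, Dag1 (0.88 ± 0.16, SE, limma adjusted p = 0.00484), which encodes the laminin and perlecan receptor dystroglycan, and 2 were lower. The lower ones were Itga2 (-1.18 ± 0.22, limma adjusted p = 0.00585), a collagen-binding integrin chain, and Itgb1 (-1.84 ± 0.46, limma adjusted p = 0.0215), the beta chain shared by most integrins for collagen and laminin. Itgb1 had 4.01, 3.96 and 4.16 at VAD 25 weeks and 5.52, 4.44 and 7.69 in control, and its adjusted p in limma was 0.0831 without the dim pair and 0.0539 with the replicate block. The median of the receptors was -0.16, against -0.03 for all named genes.

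Of 19 kept genes of collagen maturation Loxl1, a lysyl oxidase of elastic fibres, was lower (-0.81 ± 0.19) and 0 were higher, with a median of 0.13. Of 15 kept matrix proteases and inhibitors Reck, a membrane-bound inhibitor of matrix metalloproteinases, was higher (1.61 ± 0.20, limma adjusted p = 0.000878) and 0 were lower, with a median of -0.09. Reck signals were 6.33, 6.54 and 6.63 at VAD 25 weeks, 5.92, 5.98 and 6.08 at VAD 18 weeks and 5.06, 4.77 and 4.83 in control, and no 2 groups overlap. Of 20 other matrix proteins Ogn, a small leucine-rich proteoglycan, was higher (1.95 ± 0.60), and Postn (-0.46 ± 0.14) and Smoc2 (-0.81 ± 0.23), which bind other matrix proteins, were lower, with a median of 0.06. The Ogn difference was -0.13 within the dim pair and 2.99 in the other arrays, so the arrays differ in its direction. With the replicate block the limma calls of Loxl1 (adjusted p = 0.0518), Ogn (0.0829), Postn (0.0962) and Smoc2 (0.0802) did not pass, and that of Reck did (0.00722). At 18 weeks Reck (1.13 ± 0.21, limma adjusted p = 0.029) and the integrin beta chain Itgb5 (2.50 ± 0.50, limma adjusted p = 0.0382) were higher. No gene of these 4 lists was lower, and among all named genes 1.36% were higher and 0.147% lower at 18 weeks.

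Markers of the cells that could supply wall transcripts moved in the same comparisons, and their part in the results above was not tested. Of 18 kept Sertoli markers 12 were higher and 0 lower at 25 weeks, and the summed signal of the list ranged from 1450 to 2290 on the VAD 25-week arrays and from 501 to 604 on the control arrays. At 18 weeks 7 Sertoli markers were higher and 0 lower, with a summed signal of 1120 to 3030. Among all named genes 9.05% were higher and 7.95% lower at 25 weeks, and 1.36% and 0.147% at 18 weeks. With the replicate block 7 of the 12 Sertoli calls at 25 weeks held, 3 of the 5 leukocyte calls, 1 of the 2 Leydig calls and 0 of the 1 myoid call (Mylk, limma adjusted p = 0.0871). Of 7 kept peritubular myoid markers Mylk alone was called, higher at 25 weeks (0.53 ± 0.16, limma adjusted p = 0.0476). The myoid sum was 664 to 1100 at VAD 25 weeks, 396 to 725 at VAD 18 weeks and 455 to 1260 in control, so its ranges overlap. Of 10 kept leukocyte markers 5 were higher and 0 lower at 25 weeks (297 to 1070 at VAD 25 weeks and 165 to 2530 in control). Of 6 kept Leydig markers 2 were higher at 25 weeks (397 to 447, against 162 to 244 in control). Of the 8 kept endothelial and 3 kept fibroblast markers 0 were called in any comparison by limma, and the endothelial sum was 97.8 to 152 at VAD 25 weeks and 106 to 181 in control. The fibroblast sum was 13.8 to 21.3 at VAD 25 weeks, 33 to 42.9 at VAD 18 weeks and 18.4 to 42.6 in control. Germ cell markers were called at 25 weeks as well. Of 14 kept spermatid markers 0 were higher and 4 lower, and of 12 pachytene markers 3 and 5. Of 10 differentiating markers 3 were higher and 1 lower, and of 8 undifferentiated markers 1 and 0. The undifferentiated sum was 714 to 815 at VAD 25 weeks and 389 to 510 in control, while the sums of the other germ cell lists overlapped. That undifferentiated sum is carried largely by Id4, the brightest of the list, and the median difference of the 8 markers was 0.29. Sox9, Amh and Gdnf of the Sertoli list, Pdgfra, Thy1, Dpt, Cd34 and S100a4 of the fibroblast list and Pecam1, Cdh5, Tie1 and Flt1 of the endothelial list were below the filter.

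The 15 wall genes below the filter were mostly chains of specialised tissues, such as Col10a1 and Col11a2 of cartilage and Col8a1 and Col8a2 of vascular and corneal sheets. Their brightest probe sets averaged 2.24 ± 0.41 for Col10a1, 2.86 ± 0.96 for Col11a2, 3.45 ± 0.34 for Col8a1 and 3.05 ± 0.23 for Col8a2 at VAD 25 weeks (SD, n = 3), against 3.12 ± 1.02, 4.16 ± 0.76, 3.25 ± 0.95 and 2.96 ± 0.43 in control. No difference was tested for these genes. Of the 42 kept genes 13 had more than 1 kept probe set, and among the 8 called genes these disagreed in sign for Col18a1, Col25a1 and Lama5, as given above. The kept probe sets of Col4a4 disagreed as well, with the third at -0.34 (limma adjusted p = 0.6). So did those of Col5a1, at -0.37 and 0.44, and those of Col20a1, Col6a2 and Col9a1.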

How the data were processed

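Expression was measured on 9 Affymetrix arrays of 2-cycle amplified RNA, 3 per group. The deposited values are linear MAS5 signals, an intensity for each probe set, as the submitters' processing notes name the tool; its version and scaling target: not given in the sources used here. From these, log2(signal + 3.259) was computed, where 3.259 is the 25th percentile of all signals, so low folds are understated. Array medians spanned 1.56, above a limit of 0.5, and quantile normalization between arrays was therefore the main scaling. The 64 control probe sets were left out of the tests, and a probe set was kept when its mean reached the 40th percentile (log2 3.39). A platform annotation named the genes, giving 34945 probe sets 1 symbol, 932 several and 9160 none. Each gene is given by its brightest kept probe set, with _x_at and _s_at probe sets used last. Promoter sequences are RefSeq's for GRCm38.p6, with the 3 windows given above, and no other gene coordinates are given.

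The tests were limma fits (version 3.58.1, R 4.3.3, eBayes with trend) over all 9 arrays, with group and a block for dim arrays, those with a 2% trimmed mean below 0.5 of that of the median array, which left 5 residual degrees of freedom; without the block it was 6. The block model, the members and the gene lists were chosen with earlier results of these data known. The script was tested on simulated data. Named genes were those called in any comparison, the 5 highest and 5 lowest differences of each comparison, and 17 fixed wall genes. Col10a1, Col11a2, Col8a1, Col8a2, Col16a1, Col5a1, Col20a1, Col6a2, Col9a1 and Lama4 were named after their values were seen.

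Same-numbered VAD 25-week and control arrays deviated together from their group means (r from 0.519 to 0.69), but differently numbered arrays outside the dim pair did so as well (0.529 and 0.54), and same-numbered pairs with a VAD 18-week array did not (-0.005 to 0.075). The replicate-block values are therefore printed for the 25-week comparison. Precision is limited by the number of arrays.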

Additional observations from a re-analysis of the deposited data

How the results depend on the processing

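The number of wall genes called at 25 weeks, 4 higher and 4 lower, changed with most settings. It was 17 and 0 with the deposited scaling, 3 and 2 with a pseudocount of 1, 2 and 2 with no filter on low values, 2 and 3 with a filter at the 60th percentile, and 0 and 0 without the dim-pair block. It was 1 and 2 with the dim-pair block plus a replicate block, 2 and 1 with no trend in the variance, and 2 and 3 with the mean of all kept probe sets. The setting without the poly-A-bright arrays sets 1 VAD 25-week array against 1 control array, so its number of calls is not read. It stayed within 1.5 times the first count on both sides with median centring (5 and 3), a pseudocount of 16 (3 and 4), array weights (5 and 5) and the dim pair left out (3 and 3). Leaving out 1 array gave 0 to 3 higher and 1 to 3 lower at 25 weeks, 0 higher and 0 to 1 lower at 18 weeks, and 0 between the times. At 18 weeks 1 gene was higher with the deposited scaling, and 1, Col2a1, was lower with a pseudocount of 16, a filter at the 60th percentile, array weights or the dim pair left out. Between the times 8 genes were higher with the deposited scaling, 2 with array weights and 1 with the dim pair left out. No called difference changed sign in any of these settings. The cause of these changes was not tested.

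Over all probe sets the 25-week calls numbered 3999, against 10578 with the deposited scaling, 2378 with no trend, 2591 with the replicate block, 6578 with array weights, 0 without the dim-pair block and 1789 to 4166 with 1 array left out. The 18-week calls numbered 394, against 134 with the deposited scaling, 19 with the replicate block, 0 with no trend or without the dim-pair block, 1086 with array weights, 1076 with the dim pair left out and 37 to 1033 with 1 array left out. Between the times there were 0, against 1806 with the deposited scaling, 1547 with array weights, 451 with the dim pair left out and up to 390 with 1 array left out. The replicate block changed no call of a wall gene at 18 weeks or between the times.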
